A study of Mus musculus with 2 samples.

Results

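The spots described here are the endothelial-rich spots of neural tissue in 2 sections of mouse cerebellum that carried breast tumor metastases. A spot is a small circle of barcoded probes that can cover several cells, so each value is that of a region and not of a cell. The spots were chosen by their levels of 3 endothelial genes. Among spots under tissue with at least 3000 unique molecular identifiers (UMIs, the counted molecules), at least 2000 counts per 1000000 UMIs (CPM) of Mbp plus Snap25, and less than 200 CPM of Acta2, the top 5% of each section by the CPM sum of Cldn5, Flt1 and Pecam1 were taken. This gave 222 of 4419 neural spots that passed the filters, and of 7423 spots under tissue. Section 1 held 101 of 2010 and section 2 held 121 of 2409. The other 1909 and 2288 neural spots of the same sections were the reference.

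Both sections came from the same model. Organoids of mouse mammary tumors with the HER2 V777L and PIK3CA H1047R alleles (HP) were injected into the cerebellum of mice aged 5 months, the tissue was fixed in formalin and embedded in paraffin, and no treatment was given. The labels name the organoid of section 1 HP-F1 and that of section 2 HP-B6, both with cre, and the study describes the sections as biological replicates. No section without a tumor was analysed here, so every comparison is between spots of the same 2 sections, and the number of replicates is 2.

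Endothelial cells line the blood vessels of the brain and form the blood-brain barrier. Claudin 5, the product of Cldn5, seals the junctions between them, Flt1 is a receptor for vascular endothelial growth factor (VEGF), and Pecam1 is an adhesion molecule of the junction. Carriers such as the glucose transporter Slc2a1 supply the tissue, efflux pumps such as Abcb1a keep compounds out, and Wnt signals from neural cells maintain this state. Vessels change along their length from artery to capillary to vein, and leukocytes leave the blood mainly through venules. Pericytes, astrocyte endfeet and a basement membrane rich in collagen IV surround the vessel, and perivascular macrophages lie beside it.

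The 2 sections held 63986887 and 71878333 UMIs over 3406 and 4017 spots. The same 3096 spot barcodes were under tissue in both sections, 90.9% of those of section 1, as the barcodes mark positions on the array. The largest connected group of spots outside neural tissue, with 963 and 997 spots, differed between the sections. In section 1 it held 20990 CPM of the collagen gene Col1a1 and 6.31 CPM of the epithelial gene Epcam, and in section 2 it held 212 CPM of Col1a1 and 1643 CPM of Epcam. The largest group of section 1 thus carried hardly any epithelial RNA, although both sections have the HP label, and values are given for each section.

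The genes that chose the spots are given as a description. The sum of Cldn5, Flt1 and Pecam1 ran from 535 to 1449 CPM, with a median of 638, in the 101 spots of section 1, and from 539 to 1397 CPM, with a median of 654, in the 121 spots of section 2. The other neural spots had medians of 150.0 and 149.9 CPM. The last spot inside the limit had 535.33 CPM in section 1 and 539.23 CPM in section 2, and the first spot outside had 535.04 and 538.33 CPM, so the limit cut through a continuous range. Few molecules stood behind these sums: the spots held between 2 and 22 UMIs of the 3 genes in section 1, with a median of 4, and between 2 and 21 in section 2, with a median of 5. All 3 genes were seen in 23.8% of the endothelial-rich spots of section 1 and in 48.8% of those of section 2.

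**Figure D1:**
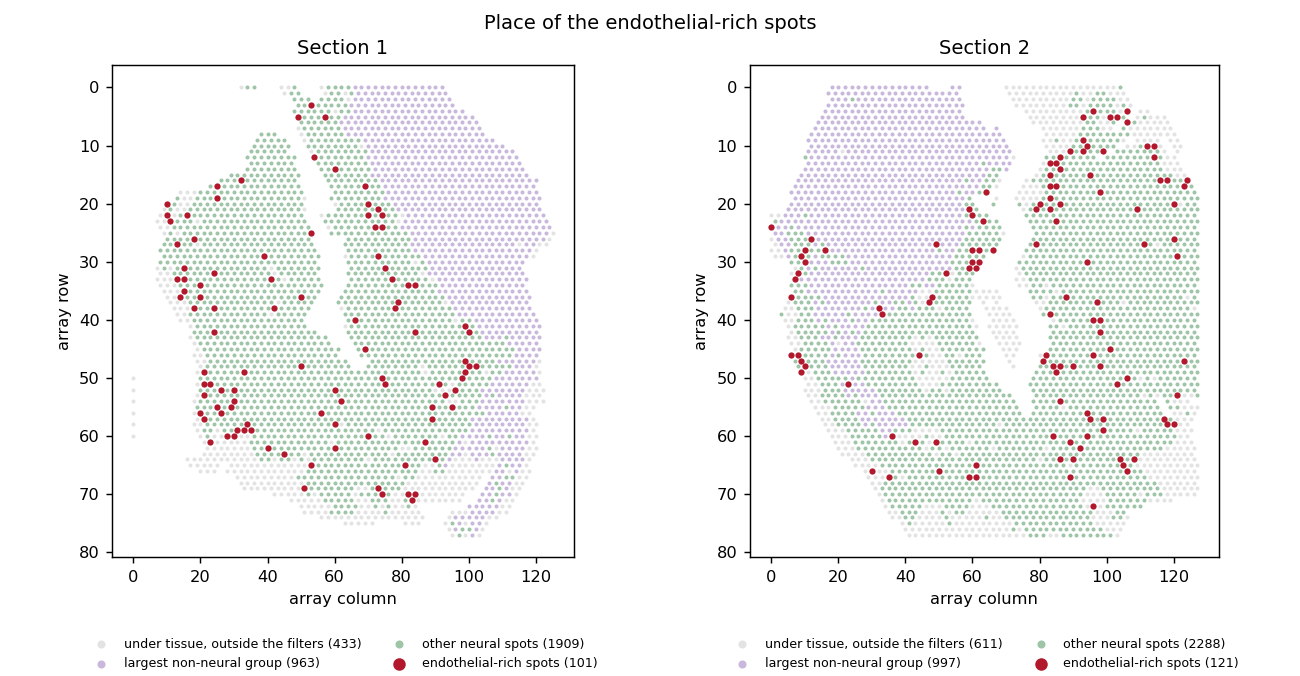
Spots under tissue in sections 1 and 2, drawn by array column and array row; the endothelial-rich spots are red, the other neural spots green, the largest non-neural group violet and all other spots gray. The 101 and 121 endothelial-rich spots were scattered over the neural tissue in 76 and 86 connected groups, of at most 6 and 5 spots.

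The spots were scattered rather than gathered in 1 place. Of the 101 spots in section 1, 59 had no endothelial-rich neighbor among the 6 spots around them, and of the 121 in section 2, 63 had none. A spot touched another endothelial-rich spot in 41.6% and 47.9% of cases, while 20.7% and 17.5% of the other neural spots touched 1. In section 1, 20.8% of endothelial-rich spots and 19.3% of other neural spots lay within 5 spot steps of the largest non-neural group, and in section 2 these shares were 27.3% and 19.3%. The shares moved with the depth of the spots: with the top 5% taken within 5 equal bins of depth they were 34.3% and 18.6% in section 1 and 34.4% and 18.9% in section 2, and above 6000 UMIs 37.7% and 20.5% in section 1 and 31.7% and 20.6% in section 2. Contact with the largest non-neural group ran in opposite directions. It was touched by 0.0% of endothelial-rich and 5.34% of other neural spots in section 1, and by 11.6% and 6.86% in section 2. At the tissue edge lay 5.94% against 6.71% in section 1 and 14.9% against 6.73% in section 2, and above 6000 UMIs 9.09% against 5.41% and 9.62% against 5.83%, so the direction in section 1 turned with the depth limit. These shares are a description and were not tested.

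The endothelial-rich spots were shallower than the others. The median endothelial-rich spot held 5557 and 7123 UMIs and the median other neural spot 9016 and 10710, ratios of 0.616 and 0.665. With the neural spots cut into 5 equal bins of depth, the shallowest bin held 50.5% of the endothelial-rich spots of section 1 and 46.3% of those of section 2, and the deepest bin held 9.90% and 9.92%. Depth moved with the choice in both sections. Where the top 5% was taken within each of the 5 bins instead, the median log2 fold change of the 29 other endothelial genes was 0.92, against 0.94 here.

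**Figure D2:**
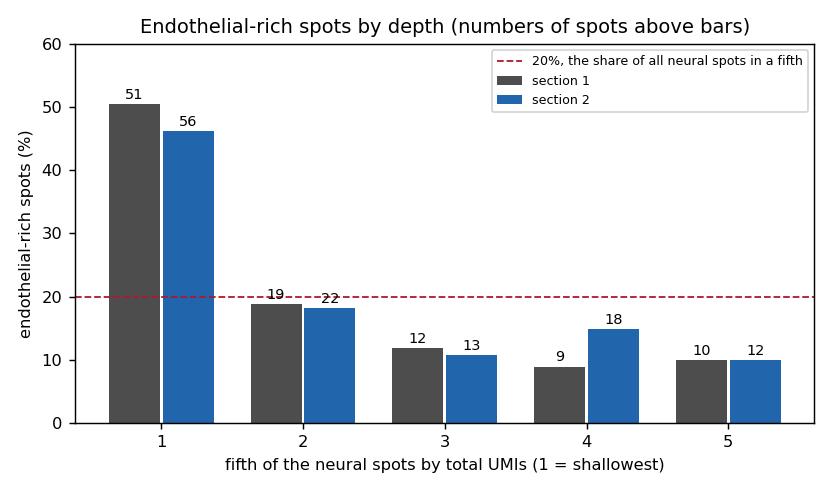
Share of the endothelial-rich spots, in percent, in each of 5 equal bins of the neural spots by total UMIs, for section 1 (gray) and section 2 (blue), with the number of spots above each bar and a dashed line at 20%. The shallowest bin held 51 and 56 spots and the deepest bin 10 and 12.

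UMIs of the endothelial-rich and the other neural spots were summed within each section, and the 4 sums were compared with section as a block in edgeR's quasi-likelihood test, with Benjamini-Hochberg adjustment over all 18668 genes and a threshold of 0.05. The 6 genes of the rule were left out. The test found 600 genes higher, 3.21% of those tested, and 472 lower, 2.53%; over all genes the log2 fold change had a median of -0.03. Of these 1072 genes, 1062 moved in the same direction in both sections. A test with section as a block favors genes whose sections agree, so this count is not independent support. Values of single genes are CPM of the summed UMIs, scaled by the factors of the test. They are given for section 1 and then section 2, in the endothelial-rich spots against the other neural spots. In such sums, more cells of a type and more RNA per cell cannot be told apart. Errors are standard errors of log2 fold changes from the fit, which shares the spread across genes. They can be smaller than the spread of a gene between the sections.

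The calls depended on the fit and on Cldn5. The fit had 1 residual degree of freedom, so its error rested on sharing the spread across genes. Without the section block, 0 genes were called in either direction by edgeR, while 1982 had an unadjusted p below 0.05. With the spots split by distance to the tumor into 8 sums that share 1 spread, edgeR also called 0, with 2017 at that level, and DESeq2 with the block called 224 higher and 100 lower. Ranked without Cldn5, the spots gave 0 genes higher and 15 lower in edgeR, with 1210 at that level, and 504 of the 600 higher and 453 of the 472 lower genes kept their direction. The words rose and fell refer to the paired test, with this limit.

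The endothelial genes that the rule did not use rose together. Of 29 tested members of the pan-endothelial list, 18 rose and 0 fell, with a median log2 fold change of 0.94, 0.64 in section 1 and 1.13 in section 2. With spots ranked without Cldn5 the median was 0.55. The summed level of the list was 1480.3 against 939 CPM in section 1 and 1786 against 833 CPM in section 2. In single spots the same sum ran from 0 to 5135 CPM in section 1, with a median of 1275, and from 0 to 4893 CPM in section 2, with a median of 1313. The other neural spots had medians of 876 and 790 CPM and reached 4421 and 3459 CPM, so the groups overlapped. In section 1, 51.5% of endothelial-rich spots were in the top 25% of neural spots by this sum, and in section 2 this was 62.0%.

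The label was checked with the defining markers of brain endothelium. Cdh5, the cadherin of endothelial junctions, had 61.5 and 86.7 CPM against 29.9 and 27.5 CPM (log2 fold change 1.39 ± 0.19, edgeR adjusted p = 0.00353). Esam, another junction molecule, had 83.2 and 109 CPM against 53.2 and 42.7 CPM (log2 fold change 1.04 ± 0.18, edgeR adjusted p = 0.00945). Emcn, a sialomucin of capillary and venous endothelium, had 32 and 45.6 CPM against 15.8 and 13.7 CPM (log2 fold change 1.43 ± 0.25, edgeR adjusted p = 0.00945). All 3 were higher in the endothelial-rich spots of both sections, by a larger ratio in section 2. Tek, the angiopoietin receptor, had 29.5 and 19.2 CPM against 12.4 and 16.1 CPM and did not pass the test (adjusted p = 0.224). Slco1c1, the thyroid hormone carrier of the barrier, had 70.4 and 58.4 CPM against 55.9 and 41.3 CPM and did not pass either (adjusted p = 0.189). Itm2a, a membrane protein of brain endothelium, had 132 and 103 CPM against 69 and 72.8 CPM (log2 fold change 0.71 ± 0.15, edgeR adjusted p = 0.0215). Of the 10 markers outside the rule that were tested, 8 passed, beside 3.21% of all genes called higher. With spots ranked without Cldn5, edgeR called 0 genes higher, so no marker passed there.

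The 3 ranking genes were also tested each in spots chosen by the other 2. Pecam1 had 34.5 and 58.3 CPM in spots ranked by Cldn5 plus Flt1, against 25.3 and 22.2 CPM (log2 fold change 1.02 ± 0.22, edgeR adjusted p = 0.000212). Flt1 had 87.8 and 119 CPM in spots ranked by Cldn5 plus Pecam1, against 84.2 and 75.2 CPM (0.40 ± 0.15, adjusted p = 0.0469). Cldn5 had 93.1 and 146 CPM in spots ranked by Flt1 plus Pecam1, against 78.9 and 83.6 CPM, and did not pass (0.54 ± 0.16, adjusted p = 0.418). Each gene was adjusted within its own fit. These fits called 0 genes higher and 15 lower without Cldn5 in the ranking, and 1957 and 1687 without Flt1. Passing or not therefore does not rank Flt1 above Cldn5. The change of Cldn5 was larger than that of Flt1, and its edgeR p before adjustment was smaller. In section 1 the held-out gene was thus close to its level in the other spots for Cldn5 and Flt1, and in section 2 it stood further above it for all 3.

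Among single pan-endothelial genes, the surface glycoprotein Cd93 had the largest called change of the list. Its levels were 89.7 and 132 CPM against 42.8 and 31.5 CPM (log2 fold change 1.62 ± 0.21, edgeR adjusted p = 0.00311). Egfl7, a factor secreted by endothelium, had 129 and 198 CPM against 78 and 70.5 CPM (log2 fold change 1.15 ± 0.17, edgeR adjusted p = 0.00557). Klf2, a transcription factor induced by blood flow, had 136 and 107 CPM against 74.8 and 69.3 CPM (log2 fold change 0.74 ± 0.14, edgeR adjusted p = 0.0135). S1pr1, the sphingosine 1-phosphate receptor, which astrocytes also express, had 183 and 139.6 CPM against 154 and 136 CPM, and the difference did not pass (adjusted p = 0.65).

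**Figure D3:**
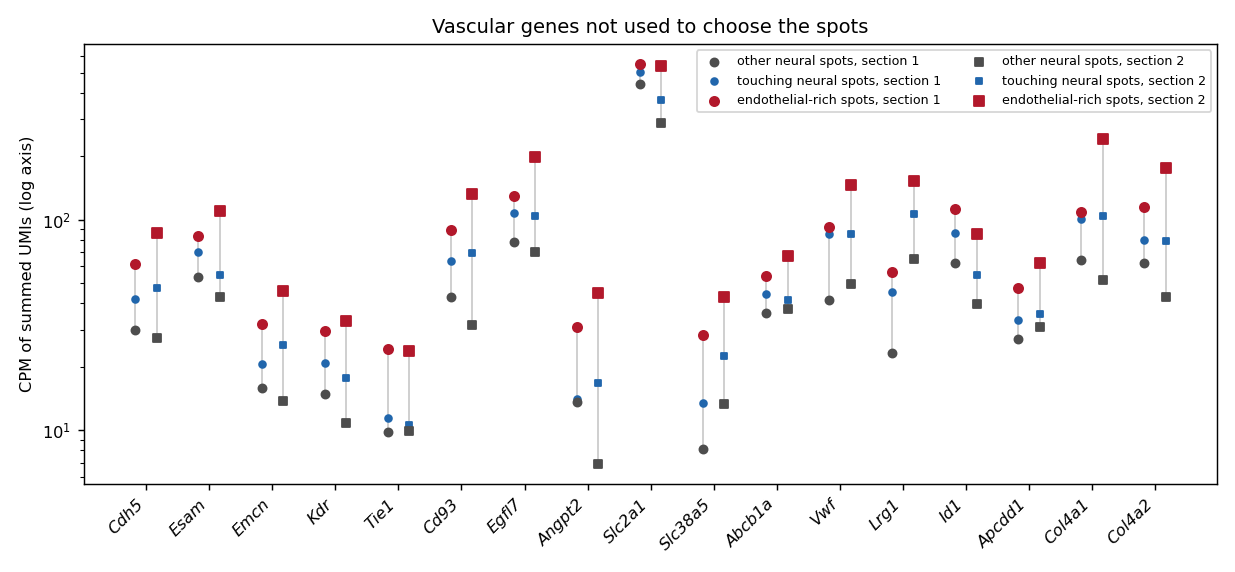
CPM of summed UMIs on a log axis for 17 vascular genes outside the rule, in endothelial-rich (red), touching (blue) and other neural spots (gray) of section 1 (circles) and section 2 (squares). All 17 genes were picked from those called higher, so their direction follows from that choice. Listed genes that were not called, such as Tek, Slco1c1, S1pr1 and Vegfa, are not drawn, nor is Spock2, which was called lower. The red points lie above the gray points of the same section for the 17 genes drawn. Angpt2 lies at 30.7 and 44.7 CPM against 13.6 and 6.86 CPM.

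VEGF and angiopoietin genes were called among receptors and for 1 ligand. Of 13 tested members, 4 rose and 0 fell. Angpt2, the ligand that activated endothelium releases to act on its own Tek receptor, rose most of all genes that the naming rule took, from 13.6 to 30.7 CPM in section 1 and from 6.86 to 44.7 CPM in section 2 (log2 fold change 2.01 ± 0.34, edgeR adjusted p = 0.00807). It rested on 24 and 49 UMIs, at most 6 and 7 of them in 1 spot. Kdr, the main signaling receptor for VEGF, had 29.5 and 32.8 CPM against 14.9 and 10.8 CPM (log2 fold change 1.32 ± 0.26, edgeR adjusted p = 0.0156). Tie1, an orphan receptor that pairs with Tek, had 24.3 and 23.7 CPM against 9.8 and 9.91 CPM (log2 fold change 1.28 ± 0.28, edgeR adjusted p = 0.0224), and the co-receptor Nrp1 had a log2 fold change of 0.98 (adjusted p = 0.0156). The ligands made by neural cells did not pass: Vegfa had 82 and 108 CPM against 109 and 83.7 CPM, opposite in the 2 sections, and Vegfb had 202 and 162 CPM against 223 and 177 CPM. Nrp2 had 62.8 and 67.5 CPM against 53.3 and 43.3 CPM (adjusted p = 0.172).

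Carriers and pumps of the barrier rose in part. Of 16 tested, 5 rose and 0 fell, with a median of 0.33. Slc38a5, an amino acid transporter that is also a venous marker, had 28.2 and 42.9 CPM against 8.09 and 13.3 CPM (log2 fold change 1.73 ± 0.25, edgeR adjusted p = 0.00448). Slc2a1, the glucose transporter, had 549 and 536 CPM against 443 and 289 CPM (log2 fold change 0.60 ± 0.14, edgeR adjusted p = 0.0294), and Abcb1a, the P-glycoprotein pump, had 53.8 and 67.5 CPM against 36.1 and 37.7 CPM (log2 fold change 0.73 ± 0.17, edgeR adjusted p = 0.0326). The chains of the large amino acid carrier, Slc7a5 and Slc3a2, had log2 fold changes of 0.40 and 0.22 and did not pass.

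Of 11 tight junction genes other than Cldn5, 2 rose and 0 fell. Lsr, a protein of junctions where 3 cells meet, had 26.9 and 64.8 CPM against 14.8 and 26.8 CPM (log2 fold change 1.14 ± 0.21, edgeR adjusted p = 0.0118), and F11r, a junctional adhesion molecule, had 61.5 and 142 CPM against 42.7 and 70.5 CPM (log2 fold change 0.83 ± 0.16, edgeR adjusted p = 0.014). Epithelium makes both as well, and epithelial RNA was higher in the endothelial-rich spots of section 2. The scaffold protein Tjp1 and the adhesion molecule Jam2 had log2 fold changes of 0.27 and 0.26 and did not pass. Of 19 genes of barrier Wnt signaling, 2 rose and 0 fell. Apcdd1, a Wnt target of barrier endothelium, had 47.4 and 62 CPM against 27.1 and 31 CPM (log2 fold change 0.92 ± 0.18, edgeR adjusted p = 0.014). The co-receptor Lrp6 and the ligand Wnt7b had log2 fold changes of 0.14 and 0.43 and did not pass.

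Bone morphogenetic protein (BMP) and transforming growth factor beta genes act on vessel growth and stability. Of 9, 5 rose and 0 fell, with a median of 0.65. Eng, the co-receptor endoglin, had 79.4 and 97.6 CPM against 50.7 and 39.8 CPM (log2 fold change 1.0 ± 0.18, edgeR adjusted p = 0.0107). Id1, a target of BMP signals, had 113 and 85.7 CPM against 62 and 39.8 CPM (log2 fold change 0.99 ± 0.15, edgeR adjusted p = 0.00618). Id3, a related target, and the receptor Tgfbr2 had log2 fold changes of 0.69 and 0.65, with adjusted p of 0.0242 and 0.0488. Of 10 Notch genes none passed the test, though all 10 were above 0 in the fit; the receptor Notch1 had 52.5 and 92.1 CPM against 54.4 and 52.6 CPM and the endothelial receptor Notch4 had 35.9 and 24.6 CPM against 22.1 and 14.2 CPM.

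Markers of the zones of the vessel were counted apart. Of 8 venous markers, 4 rose and 0 fell, with a median log2 fold change of 0.88, 0.82 in section 1 and 0.88 in section 2. Vwf, the clotting factor stored by endothelium, had 92.2 and 146 CPM against 41.5 and 49.5 CPM (log2 fold change 1.39 ± 0.16, edgeR adjusted p = 0.00277). Lrg1, a secreted glycoprotein of venous endothelium, had 56.4 and 152 CPM against 23.2 and 64.9 CPM (log2 fold change 1.25 ± 0.15, edgeR adjusted p = 0.00277). Of 11 arterial markers 0 were called, with a median of 0.08, and Fbln5, a matrix protein, had 101 and 151 CPM against 69 and 123 CPM. Of 7 capillary markers 0 rose and 1 fell, with a median of -0.01: Spock2, a proteoglycan that neurons express too, had 619 and 507 CPM against 804 and 761 CPM (log2 fold change -0.48 ± 0.11, edgeR adjusted p = 0.0309). The iron carrier receptor Tfrc had 84.5 and 75.7 CPM against 93.1 and 96.8 CPM and the capillary marker Ivns1abp 84.5 and 92.1 CPM against 78.3 and 92.4 CPM; neither passed. Over all genes 3.21% were called higher and 2.53% lower, so counts of 0 or 1 in lists of 11 and 7 genes are near those shares. They do not show that arterial or capillary RNA was unchanged. The difference between the zone lists was not tested.

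Adhesion genes let leukocytes attach to activated endothelium. Of 8 genes on the leukocyte adhesion list, 4 rose and 0 fell, with a median of 1.16, 0.83 in section 1 and 1.23 in section 2. Lcn2, counted among the 4, is not itself an adhesion gene. Selp, P-selectin, had 11.5 and 9.12 CPM against 3.23 and 2.24 CPM (log2 fold change 1.93 ± 0.45, edgeR adjusted p = 0.0289) from 9 and 10 UMIs. Icam1, a ligand of leukocyte integrins, had 24.3 and 44.7 CPM against 14.7 and 15.8 CPM (log2 fold change 1.20 ± 0.26, edgeR adjusted p = 0.0214), and Vcam1, another such ligand, had 51.2 and 49.3 CPM against 32.5 and 27.9 CPM (log2 fold change 0.74 ± 0.18, edgeR adjusted p = 0.0368). Lcn2, an iron-binding protein that reactive astrocytes and neutrophils also make, had 961 and 2439 CPM against 497 and 1004 CPM (log2 fold change 1.12 ± 0.12, edgeR adjusted p = 0.00277). For Selp and Lcn2 the direction turned in spots ranked without Cldn5, to -0.25 and -0.31, and the median of the list was then 0.11.

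Of 8 sprouting and fenestrated genes, 2 rose, Angpt2 and the chemokine receptor Cxcr4, which had 51.2 and 43.8 CPM against 30.9 and 19.2 CPM (log2 fold change 0.96 ± 0.20, edgeR adjusted p = 0.0196). The endothelial adhesion molecule Mcam and the ligand Apln had log2 fold changes of 0.53 and 0.48 and did not pass. Of 8 genes of clotting, 2 rose, Vwf and Thbd. Thbd, the anticoagulant receptor thrombomodulin, had 25.6 and 32.8 CPM against 11.5 and 10.6 CPM (log2 fold change 1.42 ± 0.27, edgeR adjusted p = 0.0124).

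Basement membrane genes encode the sheet under the endothelium. Of 13, 7 rose and 0 fell, with a median of 0.87, 0.40 in section 1 and 1.30 in section 2. The collagen IV chains were the leading members: Col4a1 had 109 and 242 CPM against 64 and 51.5 CPM (log2 fold change 1.60 ± 0.28, edgeR adjusted p = 0.014), and Col4a2 had 115 and 175 CPM against 62.2 and 42.7 CPM (log2 fold change 1.52 ± 0.22, edgeR adjusted p = 0.00457). Both were higher in both sections, by more in section 2. Sparc, a matrix protein that astrocytes also make, had 1469 and 1562 CPM against 1317 and 1222 CPM and did not pass (adjusted p = 0.217).

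Calls among markers of the cells around the vessel stand beside 3.21% of all genes called higher and 2.53% lower. In lists this short, counts of 0 or 1 are near those shares. Of 15 pericyte markers 1 rose and 0 fell, with 14 above 0 in the fit and a median of 0.30. The gene that rose was Ifitm1, an interferon-induced membrane protein, with 60.2 and 50.2 CPM against 32.6 and 15.6 CPM (log2 fold change 1.28 ± 0.22, edgeR adjusted p = 0.00894). Rgs5 and Pdgfrb, defining pericyte genes, had 71.7 and 44.7 CPM against 61 and 39.7 CPM and 34.6 and 42.9 CPM against 26.8 and 22.7 CPM, and neither passed (adjusted p = 0.61 and 0.101). Of 10 smooth muscle markers 1 rose, the tropomyosin Tpm2, with 47.4 and 130.4 CPM against 40.3 and 60.8 CPM (log2 fold change 0.79 ± 0.20, edgeR adjusted p = 0.0383); spots high in Acta2 had been left out by the rule. Of 10 genes of astrocyte endfeet 0 were called, with a median of -0.11, and the potassium channel Kcnj10 had 593 and 398 CPM against 628 and 408 CPM. Of 8 astrocyte and Bergmann glia markers 1 fell, the growth factor Gdf10 (log2 fold change -0.96 ± 0.24, edgeR adjusted p = 0.0396), while the intermediate filament Gfap had 1744 and 4207 CPM against 1450.2 and 3533 CPM and did not pass.

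Of 12 fibroblast and meningeal markers 0 were called, although the median was 0.65. Col1a1 had 977 and 99.4 CPM against 849 and 29.1 CPM, Col1a2 had 706 and 130.4 CPM against 637 and 53 CPM and Col3a1 had 388 and 45.6 CPM against 321 and 13.6 CPM. These collagens were far higher in both groups of section 1, and the ratio between the groups was larger in section 2.

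**Figure D4:**
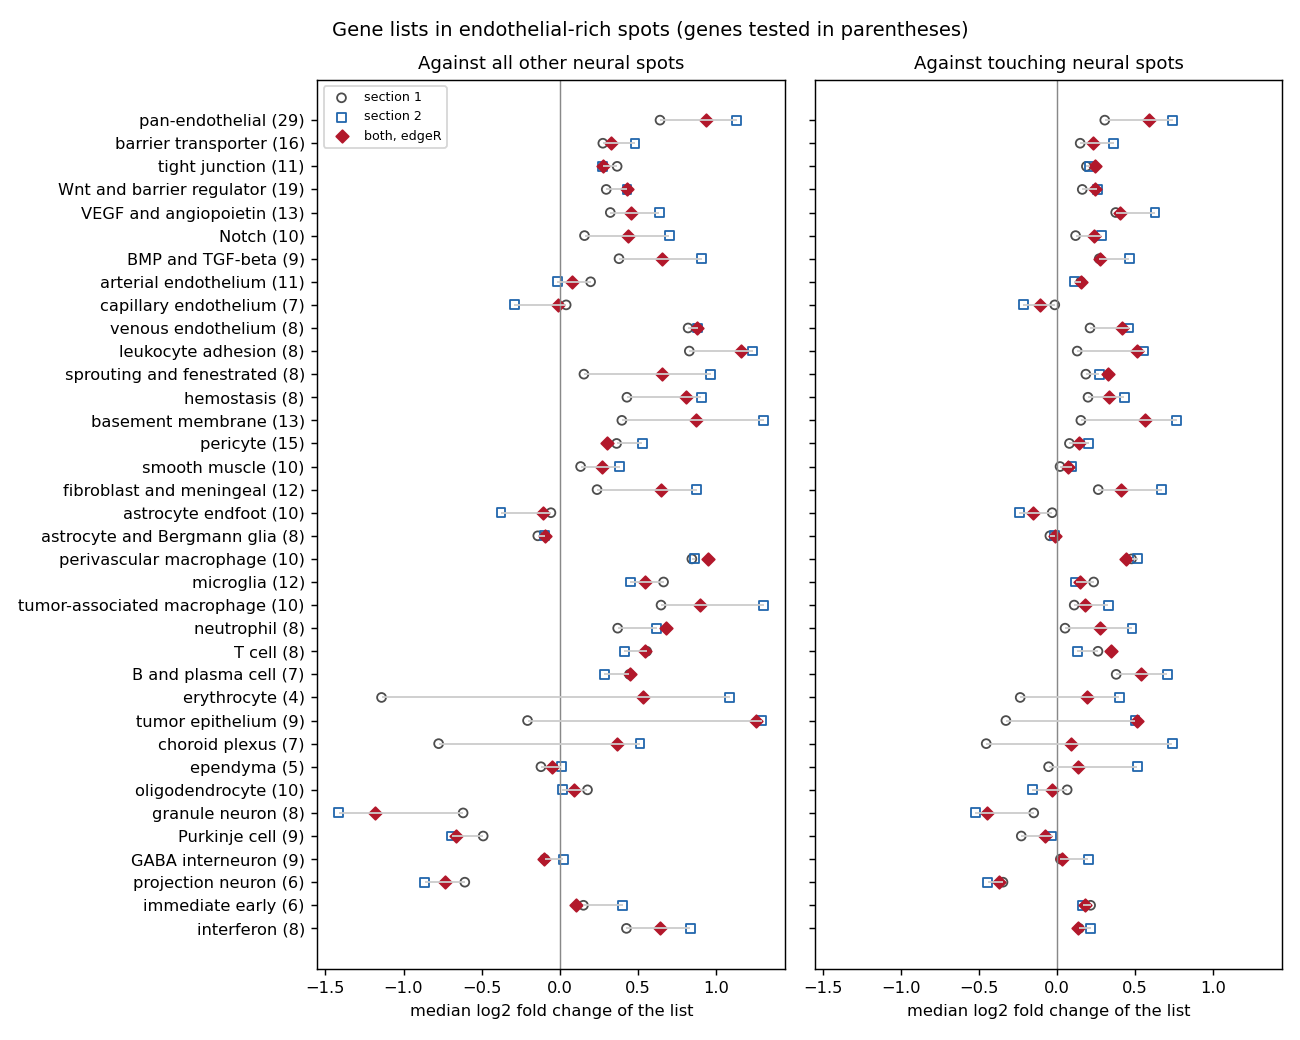
Median log2 fold change of the 36 gene lists in endothelial-rich spots against all other neural spots (left) and against the neural spots that touch them (right), with open circles for section 1, open squares for section 2 and diamonds for the edgeR fit of both. The pan-endothelial list lies at 0.64 and 1.13 on the left and at 0.31 and 0.74 on the right, and the granule neuron list lies below 0 in both sections on both sides.

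Macrophage genes rose beside the vascular genes. Of 10 tested markers of perivascular macrophages 4 rose, with a median of 0.95 and a summed level of 418 against 215 CPM in section 1 and 347 against 156 CPM in section 2. Stab1, a scavenger receptor that some endothelium also makes, had 222 and 177 CPM against 104 and 71 CPM (log2 fold change 1.21 ± 0.13, edgeR adjusted p = 0.00277), and the chemokine Pf4 had 61.5 and 47.4 CPM against 28.3 and 20.5 CPM (log2 fold change 1.17 ± 0.18, edgeR adjusted p = 0.00699). F13a1, a clotting factor chain, had 46.1 and 39.2 CPM against 28.8 and 20.8 CPM (log2 fold change 0.80 ± 0.20, edgeR adjusted p = 0.0394). Of 12 microglia markers 5 rose, with a summed level of 2069 against 1199.5 CPM in section 1 and 1698 against 1232 CPM in section 2; the receptor Csf1r had 209 and 258 CPM against 132 and 190.1 CPM and the receptor Cx3cr1 206 and 171 CPM against 108 and 119.8 CPM. Fcrls, an Fc-receptor-like microglial gene, had the largest called change of that list (0.75), which turned to -0.043 in spots ranked without Cldn5.

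Of 10 markers of tumor-associated macrophages 8 rose and 0 fell. Their summed level was 6002 against 3859 CPM in section 1 and 7068 against 3081 CPM in section 2, with no marker at 0 in either section. In single spots the median of this sum was 609 against 577 CPM in section 1 and 1733 against 842 CPM in section 2. The highest endothelial-rich spot of section 1 had 28747 CPM, and the medians of that section lay close together. Spp1, osteopontin, had 2775 and 4883 CPM against 1837 and 2257 CPM (log2 fold change 0.86 ± 0.12, edgeR adjusted p = 0.00476). Gpnmb, a glycoprotein of phagocytes, had 729 and 506 CPM against 378 and 245 CPM (log2 fold change 1.0 ± 0.11, edgeR adjusted p = 0.00277). Cd74, the invariant chain of antigen presentation, had 797 and 380.4 CPM against 456 and 109 CPM (log2 fold change 1.29 ± 0.19, edgeR adjusted p = 0.00476). Of 8 tested interferon-induced genes 5 rose. Ifitm3, which restricts viral entry, had 382 and 431 CPM against 193 and 175 CPM (log2 fold change 1.15 ± 0.13, edgeR adjusted p = 0.00277), and Ly6e and Bst2 had log2 fold changes of 0.95 and 0.65. The part of macrophages in the changes of genes they share with endothelium, such as Stab1 and Cd93, was not tested.

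RNA of epithelial tumor markers was higher in the endothelial-rich spots of section 2, and the summed choroid plexus RNA moved in opposite directions in the 2 sections. The largest non-neural group of section 1 held 20990 CPM of Col1a1 and 6.31 CPM of Epcam. Epithelial markers could therefore hardly register RNA of that group in section 1. Of 9 epithelial markers 6 were called higher, but their summed level was 32.5 against 26.2 CPM in section 1 and 1381 against 505 CPM in section 2, and Krt7 and Krt5 were at 0 in the endothelial-rich spots of section 1. The keratin Krt14 had 1.28 and 265 CPM against 1.76 and 67.6 CPM, Krt7 had 0 and 429.6 CPM against 2.35 and 162 CPM and Epcam had 8.97 and 227 CPM against 4.12 and 80.8 CPM, so these calls rested on section 2, where 44.6% of the endothelial-rich spots and 29.0% of the others had a UMI of Epcam. With spots within 5 steps of the largest non-neural group left out, 318 genes were called higher and 221 lower, and all 1072 genes kept their direction. That setting kept 80 of the 101 and 88 of the 121 endothelial-rich spots, so it shares most spots with the main comparison. It also kept spots near another Epcam-rich group of section 2, of 99 spots. Ttr, the main choroid plexus transcript, had 196 and 987 CPM against 455 and 299 CPM, and the 7 choroid plexus markers, of which 0 were called, had a summed level of 234 against 517 CPM in section 1 and 1039.9 against 325 CPM in section 2. In single spots the median choroid plexus sum was 0 in both groups of section 1, and 88.6 against 100.9 CPM in section 2. The highest endothelial-rich spot of section 2 had 35795 CPM. The top 25% of its neural spots by this sum held 32.2% of endothelial-rich and 24.6% of other spots. The summed rise of section 2 was thus not seen in the median spot. The part of tumor and choroid plexus cells in the differences was not tested.

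Markers of several neurons fell. Of 8 tested granule neuron markers 8 fell, with a median log2 fold change of -1.18, -0.62 in section 1 and -1.41 in section 2. In single spots the median of their sum was 488 against 682 CPM in section 1 and 626 against 690 CPM in section 2. The top 25% of neural spots by this sum held 20.8% of endothelial-rich and 25.2% of other spots in section 1. In section 2 it held 7.44% and 25.9%, so the summed fall there was larger than that of the median spot. Cbln1, a synapse organizer of parallel fibers, had 222 and 257 CPM against 329 and 659 CPM (log2 fold change -0.99 ± 0.17, edgeR adjusted p = 0.00807). The transcription factor Zic1 had 118 and 175 CPM against 214 and 448 CPM (log2 fold change -1.14 ± 0.15, edgeR adjusted p = 0.00306), the calcium binder Calb2 had 96.1 and 134 CPM against 208 and 315 CPM (log2 fold change -1.18 ± 0.13, edgeR adjusted p = 0.00277), and Gabra6, the receptor subunit that defines these cells, had 16.6 and 21 CPM against 22.9 and 65 CPM (log2 fold change -1.25 ± 0.27, edgeR adjusted p = 0.0235). In every case both sections moved the same way, by more in section 2.

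Of 9 Purkinje cell markers 4 fell, among them Car8 (log2 fold change -0.98 ± 0.14, edgeR adjusted p = 0.00389) and Ppp1r17 (log2 fold change -1.11 ± 0.23, edgeR adjusted p = 0.0173). Spot medians of the Purkinje sum were 503 against 510 CPM in section 1 and 353 against 473 CPM in section 2. Of 6 markers of neurons with long axons 5 fell: the neurofilament chain Nefl had 844 and 729 CPM against 1349.5 and 1255 CPM (log2 fold change -0.73 ± 0.11, edgeR adjusted p = 0.00485), Nefm had a log2 fold change of -0.74, and the glutamate transporter Slc17a6 had 64 and 54.7 CPM against 145 and 104 CPM (log2 fold change -1.05 ± 0.16, edgeR adjusted p = 0.00549). Spot medians of the sum of those 6 markers were 2160 against 2967 CPM in section 1 and 1221 against 2087 CPM in section 2. Of 9 interneuron markers 1 fell, the calcium binder Pvalb (log2 fold change -0.40 ± 0.10, edgeR adjusted p = 0.0459). Of 10 oligodendrocyte markers 0 were called, and the myelin gene Mobp had a log2 fold change of 0.27. Over all genes 3.21% were called higher and 2.53% lower, so counts of 0 or 1 in lists this short are near those shares. They do not show that this RNA was unchanged. The summed oligodendrocyte level was 10893 against 8645 CPM in section 1 and 7978 against 7647 CPM in section 2. Snap25, a neuronal gene of the rule, had 1370.4 and 925 CPM against 1873 and 2005 CPM, and Mbp, the myelin gene of the rule, had 9069 and 4804 CPM against 6625 and 4687 CPM, as a description.

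The largest changes over all genes, by the rule for named genes, included several outside the lists. Higher were Angpt2, Selp, Slc38a5, Cd93 and Col4a1, already given. E2f2, a cell cycle transcription factor, had 7.68 and 10.9 CPM against 2.35 and 2.94 CPM (log2 fold change 1.82 ± 0.46, edgeR adjusted p = 0.039), and Bub1, a mitotic checkpoint kinase, had 16.6 and 11.9 CPM against 5 and 4.26 CPM (log2 fold change 1.60 ± 0.37, edgeR adjusted p = 0.0276). Il1b, a cytokine of macrophages and microglia, had 10.2 and 56.6 CPM against 8.28 and 12.1 CPM (log2 fold change 1.67 ± 0.36, edgeR adjusted p = 0.021), nearly level in section 1. Ctla2a, a protease inhibitor, had 106 and 151 CPM against 50.5 and 36.5 CPM (log2 fold change 1.61 ± 0.20, edgeR adjusted p = 0.00277), and Ch25h, which makes 25-hydroxycholesterol, had 52.5 and 62 CPM against 18 and 20.4 CPM (log2 fold change 1.58 ± 0.19, edgeR adjusted p = 0.00277).

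The genes named here among the largest decreases rested on 1 to 33 UMIs per section in the endothelial-rich spots. Gal, the neuropeptide galanin, had 11.5 and 30.1 CPM against 17.7 and 125 CPM (log2 fold change -1.77 ± 0.27, edgeR adjusted p = 0.00617), and Kcnk12, a potassium channel subunit, had 28.2 and 17.3 CPM against 55.4 and 68.8 CPM (log2 fold change -1.51 ± 0.25, edgeR adjusted p = 0.0077). The others were Amer3 (-1.66), Xkr7 (-1.64), Tbata (-1.61), Radil (-1.58), Ltk (-1.51) and Spata7 (-1.43), each a log2 fold change with an adjusted p between 0.0124 and 0.045.

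Over single spots, no gene followed the ranking sum closely. Among 10969 genes seen in at least 10% of the neural spots of both sections, the 10 with the highest Spearman correlation with the sum, over 2010 and 2409 spots, were Fth1 (mean rho 0.22), Igfbp7 (0.22), Fn1 (0.19), Tmsb4x (0.19), Apod (0.19), Tgm2 (0.19), Apoe (0.18), Gnai2 (0.18), Tagln2 (0.18) and C1qa (0.18). All values were weak, and the spots share depth and section. The other neural spots held a median of 1 and 2 UMIs of the 3 ranking genes, and 25.1% and 20.1% of them held none. So few molecules limit any correlation, and weak values do not show that no gene varied with the endothelial genes. Igfbp7, a secreted binder of growth factors found in vessels, had 339 and 723 CPM against 184 and 208 CPM (log2 fold change 1.37 ± 0.18, edgeR adjusted p = 0.00311) in the summed counts. Fn1, fibronectin, had 603 and 1024 CPM against 465 and 341 CPM (log2 fold change 1.0 ± 0.23, edgeR adjusted p = 0.041), and C1qa, a complement chain of microglia and macrophages, had 1716 and 1163 CPM against 929.6 and 668 CPM (log2 fold change 0.84 ± 0.11, edgeR adjusted p = 0.00277). Igfbp7, Fn1 and C1qa were picked by their correlation with the sum that also chose the spots. Their direction here follows from that choice, and these p-values are not independent support.

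A closer reference was given by the neural spots that touch an endothelial-rich spot, 395 in section 1 and 401 in section 2. Of 13616 genes tested against them, edgeR's paired test called 124 higher, 0.911%, and 50 lower, 0.367%. This comparison shares the endothelial-rich spots with the first. Of 29 pan-endothelial genes 9 rose, with a median of 0.59, of 13 basement membrane genes 5 rose, with a median of 0.56, and of 8 venous markers 2 rose, with a median of 0.42. Without the section block edgeR called 0 genes, with 368 at an unadjusted p below 0.05, and DESeq2 called 0 genes with the block, with 113 at that level.

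Endothelial and matrix genes were among the largest increases over touching spots. Markers of other cells were also called higher there, 3 of 9 for tumor epithelium, 2 of 11 for fibroblasts and meninges and 1 of 5 for choroid plexus, and their part was not tested. Angpt2 had 31.6 and 44 CPM against 14 and 16.7 CPM (log2 fold change 1.31 ± 0.24, edgeR adjusted p = 5.96e-05) and Tie1 had 25.1 and 23.4 CPM against 11.5 and 10.5 CPM (log2 fold change 1.14 ± 0.29, edgeR adjusted p = 0.0159). Col4a2 had 119 and 172 CPM against 79.9 and 79.4 CPM (log2 fold change 0.89 ± 0.13, edgeR adjusted p = 3.02e-08), and the laminin binder Nid1 had 19.8 and 51.2 CPM against 18.9 and 20.1 CPM (log2 fold change 0.93 ± 0.24, edgeR adjusted p = 0.013), where the excess lay in section 2. Pcolce, an enhancer of collagen processing, had 50.1 and 44.9 CPM against 32.1 and 20.6 CPM (log2 fold change 0.89 ± 0.21, edgeR adjusted p = 0.00536). Slc38a5 and Il1b both had a log2 fold change of 0.97, and the others were the phosphatase Ppm1j (1.76), the centrosome protein Cep192 (0.95) and the retinol receptor Stra6 (0.89).

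Against touching spots 0.911% of all genes were called higher, and calls among macrophage genes are given beside that share. Of 10 tumor-associated macrophage markers 1 was called higher, Cd74 (log2 fold change 0.58 ± 0.10, edgeR adjusted p = 2.86e-06), and Gpnmb had 750.4 and 498 CPM against 701 and 481 CPM. All 10 tumor-associated macrophage markers were above 0 in the fit, with a median of 0.18. Of 12 microglia markers 0 were called, with 10 above 0 and a median of 0.14. Perivascular macrophage markers had 1 of 7 called higher, with a median of 0.44. Among the genes lowest against touching spots were Radil (-1.32), Kcnk12 (-1.02), Ufsp1 (-0.92), Osbp2 (-0.82), the glutamate receptor Grm4 (-0.74), the calcium sensor Ncald (-0.73), Gdap2 (-0.71), the synaptic scaffold Lin7a (-0.70) and the protease Mmp24 (-0.69), as log2 fold changes. Of 8 granule neuron markers 4 fell.

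Endothelial-rich spots near the tumor were compared with those far from it. Near meant within 5 spot steps of the largest non-neural group, 21 and 33 spots, and far meant the other 80 and 88. That group stands for the tumor here, although in section 1 it held hardly any Epcam. Of 16267 genes tested over the 8 sums, 22 were higher near, 0.135%, and 223 lower, 1.37%. With 10 steps as the limit these counts were 563 and 854. Section 2 held another Epcam-rich group, of 99 spots with 1570 CPM of Epcam, and 39.7% of its endothelial-rich spots lay within 5 steps of either group; with both counted, 568 genes were higher and 876 lower. Among the other neural spots the same contrast gave 1032 higher, 6.34%, and 1780 lower, 10.9%, from many more molecules. The difference between both contrasts was tested directly as an interaction, and edgeR called 0 genes, 0.0%, with 414 at an unadjusted p below 0.05; DESeq2 also called 0, with 241 at that level. No gene was shown to change near the tumor in endothelial-rich spots beyond the change of other spots.

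**Figure D5:**
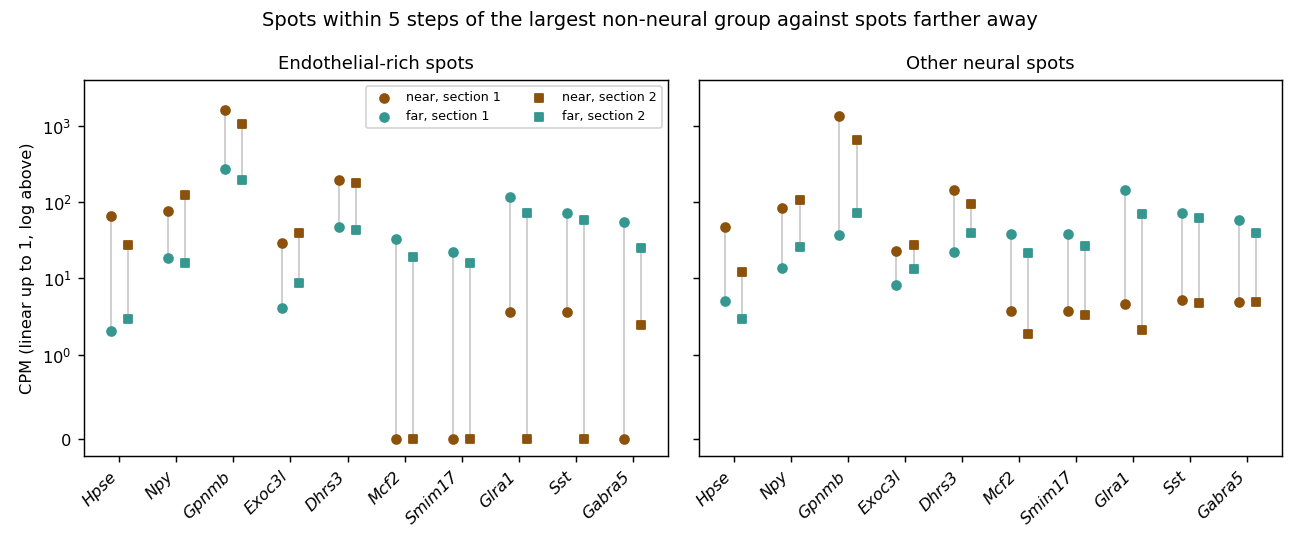
CPM, linear up to 1 and on a log scale above, of 10 genes near (brown) and far (teal) from the largest non-neural group, in endothelial-rich spots (left) and other neural spots (right) of section 1 (circles) and section 2 (squares). The same direction is seen in both panels for all 10 genes, with Gpnmb at 1588 and 1041 CPM near against 272 and 192 CPM far in endothelial-rich spots.

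Gpnmb, the glycoprotein of phagocytes, was among the genes higher near the tumor, with 1588 and 1041 CPM near against 272 and 192 CPM far (log2 difference 2.5 ± 0.45, edgeR adjusted p = 0.0404). In other neural spots it had 1336 and 654 CPM near against 36.5 and 70.7 CPM far (log2 difference 4.11 ± 0.47, edgeR adjusted p = 0.00134). Hpse, heparanase, which cleaves the heparan sulfate of basement membranes, had 65.7 and 27.1 CPM near against 2.03 and 2.91 CPM far (log2 difference 4.07 ± 0.72, edgeR adjusted p = 0.0208). Npy, neuropeptide Y, had 76.7 and 123 CPM near against 18.2 and 16 CPM far (log2 difference 2.57 ± 0.35, edgeR adjusted p = 0.00915). Dhrs3, a retinal reductase, and Exoc3l, an exocyst-related gene, had log2 differences of 2.06 and 2.39.

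The 5 genes named as lower near the tumor were close to 0 there. Mcf2, an exchange factor, and Smim17, a small membrane protein, had 0 UMIs in both near groups and 29 and 22 UMIs in the far groups, at least 5.44-fold and at least 4.13-fold lower near, against a floor of 3 UMIs over both sections. Glra1, a glycine receptor subunit, had 1 UMI near and 107 far (ratio of far to near CPM 60.2, exact 95% interval 10.6 to 2400), Sst, somatostatin, had 1 and 75 (42.2, 7.35 to 1689), and Gabra5, a GABA receptor subunit, had 1 and 44 (24.8, 4.22 to 999.7). These intervals cover counting error only. In other neural spots all 5 genes were lower near as well, with log2 differences from -4.98 to -3.17. The projection neuron list was also lower near, with a median of -2.39 in endothelial-rich and -2.93 in other neural spots. Distance from the tumor and brain region cannot be told apart in these sections.

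No endothelial or basement membrane list had a member called higher near the tumor. Over all genes only 22 of 16267, 0.135%, were called higher near and 1.37% lower, so 0 calls in lists this short are near that share. The count of genes higher near depended on the limit. It was 563 with 10 steps and 568 with the other Epcam-rich group also counted as tumor. Calls within the lists under those limits are not given here. The pan-endothelial list had 0 of 29 called and a median log2 difference of 0.49, with 27 of 29 above 0, and the basement membrane list had 0 of 13 called and a median of 1.03, with 12 of 13 above 0. The barrier transporter list had a median of -0.34, with 1 gene called lower, and the capillary list a median of -0.29, with 1 called lower. Over all genes the median was -0.07. With 21 and 33 spots near the tumor, changes of this size were not called. A p that misses the threshold does not show that near and far vessels were alike. The other neural spots had medians of -0.33 for barrier transporters (5 called lower) and -0.05 for capillary markers (3 lower). Their medians were 1.24 for basement membrane (4 higher) and 0.28 for pan-endothelial genes (1 higher). Over all genes 6.34% were called higher and 10.9% lower in those spots. Each of these list medians thus had the same sign in the endothelial-rich and the other neural spots. Whether the sizes of these medians differed was not tested.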

How the data were processed

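Visium CytAssist libraries, which count probes for protein-coding genes in formalin-fixed sections, were made from 2 sections of 1 group. The authors deposited UMI counts per gene and spot from Space Ranger 2.1.1, with mm10 given as the build in the submitters' processing notes, and spot positions; the counts were not normalized. No column of per-sample values was left unused.

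Spots were selected as described, and UMIs were summed per section and group, giving 4 libraries of 768098 to 27901386 UMIs. Both groups of a comparison lie on the same section, so section was a block by design. Genes passing filterByExpr were tested with edgeR 4.0.16 (glmQLFit, glmQLFTest, TMM factors) in R 4.3.3, with Benjamini-Hochberg adjustment and a threshold of 0.05. The main comparison had 1 residual degree of freedom and a median prior of 10.7, and the 8 near and far libraries had 3. The 6 genes of the rule stayed in library sizes and left the tests. Within-section ratios had 0.5 CPM added. CPM of spots and of summed lists were not scaled further. DESeq2 1.42.0 was an alternative. Spots were handled in Python 3.11.15, and no doublet caller was run.

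The named genes were the 6 genes of the rule, the 10 largest changes in each direction among called genes whose 2 sections moved alike and with 5 CPM or more in the higher group (5 for near and far), in each list the 3 most abundant genes and the largest called change, and the 10 genes most like the ranking sum; the defining endothelial markers were added. Some genes that this rule takes are not reported here. The rule, the members and the 36 lists were chosen with earlier results of these data known, so they are not independent support. The p-values rest on these 2 sections and on a spread shared across genes. They do not measure the spread of a single gene between the sections alone. Alternatives changed the ranking, the share taken, the filters, the reference, the scaling, the block and the tool. Precision was limited by the few UMIs per gene in the endothelial-rich libraries.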

Additional observations from a re-analysis of the deposited data

How the results depend on the processing

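The limits are the 2 sections, the single residual degree of freedom and the few molecules per spot, and depth limits genes with under about 10 UMIs in the endothelial-rich spots. In place of 600 genes higher and 472 lower, edgeR called in all 0 and 15 with spots ranked without Cldn5, 1957 and 1687 without Flt1, 163 and 221 in the top 2.5%, 1337 and 837 in the top 10%, 1253 and 953 above 6000 UMIs, 1530 and 1068 within 5 bins of depth, 124 and 50 against touching spots, 318 and 221 in far spots only, 946 and 979 in spots with all neighbors eligible, and 796 and 733 without spots of high Ttr. DESeq2 called 224 and 100, and the 8 libraries sharing the spread gave 0 and 0. Without the replicate block, that is with the sections unpaired, 0 and 0 were called, 0 and 0 against touching spots, and 3 and 64 for near against far. Against touching spots DESeq2 called 0 and 0. In place of 22 genes higher and 223 lower near the tumor, 10 steps gave 563 and 854, any tumor-marked group 568 and 876, RLE factors 147 lower, and DESeq2 64 higher. The far, inner, all-neighbor and Ttr settings and the tumor-marked groups were chosen after seeing the data. No setting of the comparison with other neural spots called a gene in the direction opposite to its main call (0 genes), and the interaction gave 0 genes with 10 steps, any tumor-marked group, RLE factors, no block and DESeq2, the settings in which it was run. All settings use the same 2 sections and share spots with the main choice, and some called 0 genes. An opposite call was thus unlikely from the start, and its absence is not independent support. Leaving out a section leaves no residual degree of freedom, so it gave values only. The cause of these changes was not tested.

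Log2 fold changes that turned were, without Cldn5, Selp -0.25, Vegfb 0.14, Nrp2 -0.14, Fbln5 -0.13, Tfrc 0.086, Ivns1abp -0.16, Lcn2 -0.31, Col1a1 -0.35, Col1a2 -0.30, Col3a1 -0.41, Kcnj10 0.26, Fcrls -0.043 and Bst2 -0.15, and without Flt1, S1pr1 -0.11 and Mobp -0.027. Against touching spots Vegfa was -0.037 and Rgs5 -0.018, and within 5 bins of depth Rgs5 was -0.10 and Mobp -0.010. The 8 libraries gave Vegfa -0.11 and Kcnj10 0.14, no block gave Vegfa -0.015, spots with all neighbors eligible Rgs5 -0.074, the top 10% Kcnj10 0.022, the top 2.5% Ivns1abp -0.046, DESeq2 Krt7 -0.54, far spots Ttr -0.63, and spots without high Ttr, Ttr -0.43. Leaving out 1 section put Krt7 between -2.51 (without section 2) and 1.40 (without section 1), and Krt14 between -0.35 and 1.96.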

Other observations

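Lists of cells not described so far had 0 genes called between endothelial-rich and other neural spots: neutrophils, T cells, B and plasma cells, erythrocytes, ependyma and the immediate early genes. edgeR's paired test was used for each, and 3449 of 18668 genes had an unadjusted p below 0.05. Over all genes 3.21% were called higher and 2.53% lower, so 0 calls in lists of 4 to 8 tested genes do not show that they were unchanged. The median log2 fold changes were 0.68 for neutrophils, 0.55 for T cells, 0.45 for B and plasma cells, -0.05 for ependyma and 0.10 for immediate early genes. For erythrocytes the median was 0.54, opposite in the 2 sections. Near the tumor, the projection neuron list of the endothelial-rich spots had 3 of 6 genes called lower, with a median log2 difference of -2.39, and the tumor-associated macrophage list had 1 of 10 called higher, with a median of 1.64. Over all genes 0.135% were called higher near and 1.37% lower in the endothelial-rich spots. In the other neural spots the same lists had 6 of 6 called lower, with a median of -2.93, and 5 of 10 called higher, with a median of 3.19. Over all genes 6.34% were called higher near and 10.9% lower in those other spots.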
